A study of Arabidopsis thaliana with 9 samples.

Results

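The leucine-rich repeat receptor kinases described here are 164 genes of Arabidopsis thaliana, out of 33323 in the deposited tables. They were chosen by their annotation: the text before its first semicolon had to name both a leucine-rich repeat and a kinase. The commonest wording, leucine-rich repeat protein kinase family protein, covers 127 of them, and the others are called receptor-like or transmembrane kinases or, in 1 case, a pseudogene related to them. The rule is one of wording, so FLS2, BRI1, BAK1 and other well-studied kinases of the same build, which are annotated in other words, are not members and are counted apart as relatives. RNA-seq was run on whole rosettes, cut from the roots at 23 days of age, of wild-type Col-0 and of the mutant lines jazQ and jazD, with 3 libraries per genotype. A library was made from a pool of about 20 plants, grown at 20 °C with a photoperiod of 16 h and a night of 8 h, and all genotypes shared trays. The lines are known to carry mutations in JAZ genes, in JAZ1, JAZ3, JAZ4, JAZ9 and JAZ10 for jazQ and additionally in JAZ2, JAZ5, JAZ6, JAZ7 and JAZ13 for jazD, although the labels name only the lines. For jazD the accession is written Col-0*, and the asterisk has no explanation in the labels.

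The repeats of these proteins lie outside the cell and bind peptides, hormones or other proteins, and a membrane span joins them to a kinase domain in the cytoplasm. On binding their ligand, many pair with a co-receptor kinase of the same build, and the family is known for immunity to microbes, for vascular and organ growth and, in pollen, for tube growth. JAZ proteins repress the transcription factors of the jasmonate response, and the comparisons ask which transcripts differ when several of these repressors are lost.

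Total expected counts per library ran from 15370271 to 20730459, of which 0.316 to 0.374% fell on the members. Levels are given as CPM, counts scaled to the same library size, and levels of different genes are compared only as TPM, which is per transcript length. JAZ1, mutated in both lines, ranged over 23.8 to 26.5 CPM in wild type but only 2.54 to 2.79 in jazQ and 2.05 to 2.69 in jazD. JAZ2, mutated in jazD only, had 2.63 to 3.46 CPM there, 21.1 to 26.9 in Col-0 and 29.7 to 47.3 in jazQ. The labelled tissue was checked on the leaf markers RBCS1A, LHCB1.3, RCA and PSBO1, which summed to 41710 to 43290 CPM in wild type, 40480 to 47640 in jazQ libraries and 38560 to 39380 in jazD libraries. Of 5 root markers, RHD6 and EXP7 had no count in any library, and the sum of all 5 was 32.7 to 40.6, 32.9 to 37.5 and 27.98 to 30.5 CPM in the same order. COBL9 had 7 counts in all, so nearly all of that sum came from SCR and PHO1 (means of 24.0 and 12.95 CPM in Col-0). The 3 pollen and anther markers summed to 0.211 to 0.345, 0.0590 to 0.333 and 0.117 to 0.169 CPM, and the 5 guard cell markers to 44.95 to 52.7, 53.6 to 59.97 and 43.9 to 50.5 CPM. Between jazD and Col-0, 1 of 4 leaf markers fell (RCA, Rubisco activase, log2 -0.50 ± 0.07), 1 of 2 tested root markers fell (SCR, a patterning factor) and of 5 guard cell markers 1 rose (FAMA, a transcription factor) and 1 fell (KAT1, a potassium channel, -0.68 ± 0.12, in a stretch of chromosome 5 described below). The part of these markers in the results below was not tested.

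Of the 164 members, 145 had a count in at least 1 library and 19 had none in any. The filter on low counts kept 113 members for testing. The 51 others, 19 without counts and 32 with few, had at most 0.506 CPM in any group mean. Levels ran over several orders of magnitude, and 103 members had a mean TPM of at least 1. By the mean over all 9 libraries the highest was SOBIR1 (AT2G31880), which regulates cell death and innate immunity, with 127 ± 32.7 TPM in Col-0 (mean ± SD, n = 3 libraries, as for all levels below), then 94.8 ± 15.2 in the jazQ line and 87.1 ± 1.41 in the jazD line. AT1G51805 followed with 99.6 ± 1.96 TPM in Col-0, then AT1G35710 with 87.9 ± 13.6, BARK1 (AT3G23750), a kinase that associates with BAK1, with 67.9 ± 16.97, and AT5G49760 with 57.7 ± 2.18. In Col-0 alone FEI1 (AT1G31420), at 58.5 ± 3.24 TPM, stood level with AT5G49760. In Col-0 the ranges of mean ± SD of neighbours in this order overlapped, and the SOBIR1 libraries were uneven, at 217, 250.2 and 145 CPM. None of these 5 passed the test between jazD and Col-0. Without Col-0 replicate 3, however, SOBIR1 (-0.67), AT1G35710 (-0.42) and BARK1 (-0.83) did pass as lower in jazD. All 3 also passed as lower on TPM (-0.50, -0.36 and -0.69 in the same order), and SOBIR1 (-0.47) and BARK1 (-0.66) in the Wald test of DESeq2. BARK1 passed as well without jazQ replicate 1 (-0.66). The 6 pollen receptor kinases PRK1 to PRK6, which act in pollen tubes, were at the bottom, with at most 22 counts over the 9 libraries for any of them, in rosettes whose pollen markers were also near 0.

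**Figure D1:**
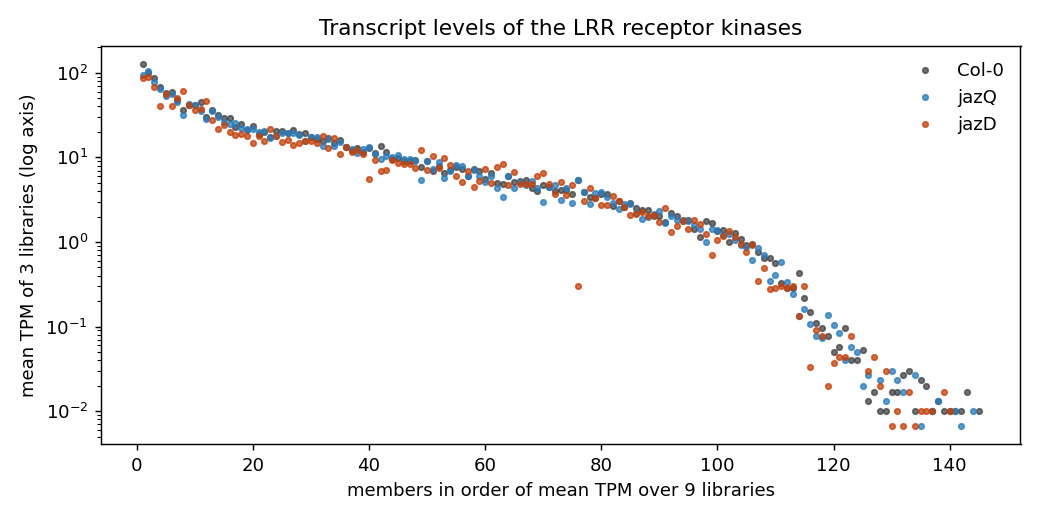
Mean TPM of 3 libraries (log axis) for the 145 members with a count, in order of their mean over all 9 libraries, with 1 point per genotype. Means of 0 are not drawn, and the point far below the curve is AT5G45840 in jazD, at 0.303 TPM against 5.42 in Col-0.

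In jazD rosettes the family split, with 19 of 113 tested members higher and 24 lower than in Col-0, or 38.1% called where 25.8% of all tested genes were. Most shifts were small: the rises reached at most 1.80-fold (AT1G51890), and 5 falls were of 2-fold or more. The fall of AT5G45840, to 0.0591 of its Col-0 level, was far larger than any other. A member was called at an adjusted p under 0.05 in edgeR's quasi-likelihood F test, adjusted over the 19405 genes tested. By direction, 16.8% of members were higher and 21.2% lower, against 13.3 and 12.5% of all genes. The median log2 fold change was -0.12 for the members and -0.003 for all genes. On TPM in place of counts the split was 14 higher and 33 lower of the 103 members with enough TPM. All genes leaned lower on that scale too, with medians of -0.069 and -0.076 for the 2 pseudocounts. Their shares called on TPM were not counted, so this split is not a result about the members. The balance between the directions depends on the scale. In whole rosettes, fewer cells of a type and less RNA per cell cannot be told apart.

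**Figure D2:**
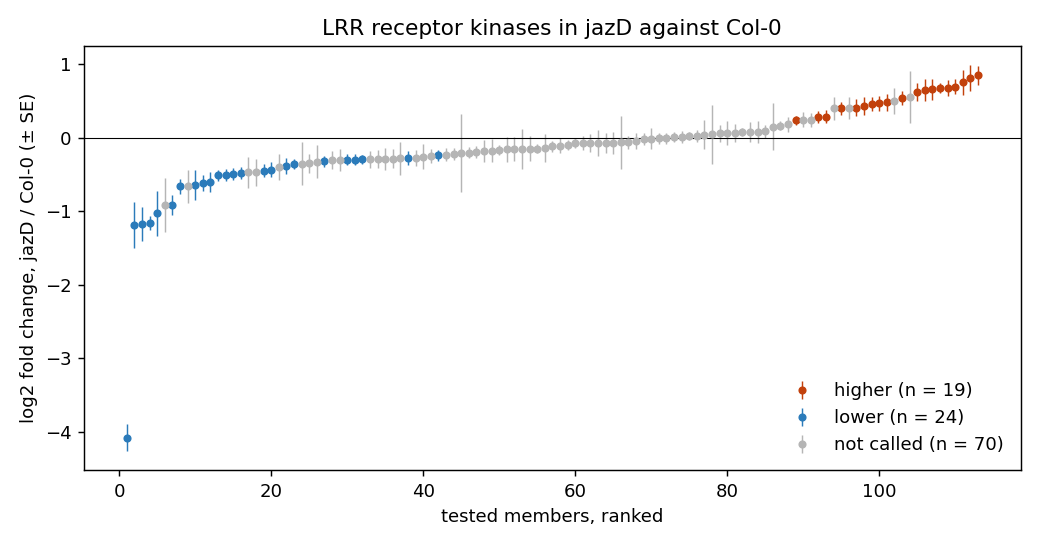
Log2 fold change of jazD over Col-0 ± standard error for the 113 tested members, in order of size, with members that passed the test in colour. The 19 higher members end at 0.85, and the 24 lower ones reach -1.19 apart from AT5G45840 at -4.08.

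IOS1 (AT1G51800) was the only member that differed between all pairs of genotypes. It encodes a receptor kinase that contributes to the interaction with the downy mildew oomycete. For IOS1 the 3 Col-0 libraries had 11.5, 10.4 and 9.45 CPM, those of jazQ 6.72, 6.91 and 6.21 and those of jazD 14.5, 15.5 and 15.5. The jazQ libraries were all below those of Col-0 and the jazD libraries all above, with no overlap. The rise in jazD over Col-0 was log2 0.54 ± 0.10 (± standard error, adjusted p = 0.00101, edgeR) and the fall in jazQ was -0.66 ± 0.10 (adjusted p = 0.00513). Between the lines, jazD stood 2.30-fold above jazQ (log2 1.201 ± 0.10).

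IOS1 rose in jazD and fell in jazQ, AT1G06840 rose in jazD alone and AT3G56370 fell in jazD. The call of AT3G56370 against Col-0 was lost in several fits, given below. AT1G06840 and AT3G56370 were chosen after their values were seen. The stretches of 300 bases before the annotated start of these 3 members are shown as examples of 3 courses, not as typical of them. They were read from the RefSeq genome of build TAIR10.1 on the coding strand, 5′ to 3′, at chr1:19213772-19214071 (plus strand) for IOS1, chr1:2103508-2103807 (minus strand) for AT1G06840 and chr3:20903081-20903380 (minus strand) for AT3G56370. Capitals mark matches, on either strand, to CACGTG, the G-box bound by MYC factors, or to TTGACC, a form of the W-box bound by WRKY factors. The related form TTGACT was not searched, and it can be read unmarked in the IOS1 sequence below.
IOS1: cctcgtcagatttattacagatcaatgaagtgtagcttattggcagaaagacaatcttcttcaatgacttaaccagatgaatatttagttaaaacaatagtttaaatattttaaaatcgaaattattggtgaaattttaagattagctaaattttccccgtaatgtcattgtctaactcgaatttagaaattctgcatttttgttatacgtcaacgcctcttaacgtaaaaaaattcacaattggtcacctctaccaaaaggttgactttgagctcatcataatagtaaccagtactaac
AT1G06840: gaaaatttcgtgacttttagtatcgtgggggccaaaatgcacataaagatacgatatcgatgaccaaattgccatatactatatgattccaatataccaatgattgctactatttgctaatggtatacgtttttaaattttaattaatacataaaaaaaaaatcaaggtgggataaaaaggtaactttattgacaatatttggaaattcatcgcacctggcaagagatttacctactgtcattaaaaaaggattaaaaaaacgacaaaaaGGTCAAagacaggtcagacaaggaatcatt
AT3G56370: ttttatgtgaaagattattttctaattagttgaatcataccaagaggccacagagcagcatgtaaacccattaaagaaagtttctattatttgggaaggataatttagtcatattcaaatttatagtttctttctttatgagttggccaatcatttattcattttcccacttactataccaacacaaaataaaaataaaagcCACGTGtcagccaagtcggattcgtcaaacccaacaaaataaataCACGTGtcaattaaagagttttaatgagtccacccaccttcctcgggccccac
AT3G56370 has CACGTG at 98 and at 53 bases before its start, AT1G06840 has the complement of TTGACC at 30 bases before its start, and IOS1 holds neither word in this window. Over the members, the G-box word was in 0 of 19 promoters of members that rose, 2 of 24 of those that fell and 4 of 70 of those not called, beside 6.44% of 32834 promoters of the same length. The W-box word was in 4 of 19, 5 of 24 and 10 of 70, beside 13.5% of all promoters. These are matches of letters only and were not tested.

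The largest rises in jazD were in members for which the annotation and reference used here gave no name. AT1G51890 lies near IOS1 in the same run of neighbouring members. For AT1G51890 the 3 Col-0 libraries had 10.2, 12.4 and 8.87 CPM, those of jazQ 8.31, 7.02 and 7.13 and those of jazD 17.2, 18.2 and 21.1. The jazD libraries lay above all others, and the rise over Col-0 was log2 0.85 ± 0.12 (adjusted p = 0.000239). For AT5G25930 the 3 Col-0 libraries had 20.8, 21.3 and 16.8 CPM, those of jazQ 17.6, 12.3 and 12.1 and those of jazD 39.3, 32.2 and 27.7. Here too every jazD library exceeded the other 6 (AT5G25930, log2 0.76 ± 0.17 against Col-0, adjusted p = 0.0107, and 1.25 ± 0.18 against jazQ). AT1G53430 and its neighbour AT1G53440 were the most abundant members that rose, with mean TPM in jazD of 60.4 and 45.9. For AT1G53430 the 3 Col-0 libraries had 110.3, 92.1 and 80.5 CPM, those of jazQ 98.8, 85.7 and 62.5 and those of jazD 169.6, 176 and 151. For AT1G53440 the 3 Col-0 libraries had 76.2, 71.7 and 70.4 CPM, those of jazQ 76.8, 68.9 and 63.9 and those of jazD 117, 121 and 111. In both genes the 3 jazD libraries were the highest, with rises of 0.81 ± 0.17 and 0.68 ± 0.07 (adjusted p = 0.0114 and 1.3e-05, edgeR). AT4G39270 (0.70 ± 0.11), AT1G56140 (0.68 ± 0.11), AT5G07150 (0.66 ± 0.14), AT3G47570 (0.65 ± 0.14), AT1G56145 (0.48 ± 0.11) and AT5G65240 (0.47 ± 0.10) rose as well. That the jazD libraries did not overlap those of Col-0 was a condition for naming them. Of AT5G65240, 10.9% of the 50-base words of its exons occur more than once in the chromosome sequences. Whether the copies lie in another gene was not checked. If they do, its reads could be divided with that gene. The same share was 1.68% for AT1G53430, 2.40% for AT1G53440 and under 1% for 100 of the 113 tested members.

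PXL2 (AT4G28650), a relative of the vascular peptide receptor PXY, was a growth receptor of the family that rose. For PXL2 the 3 Col-0 libraries had 5.07, 4.16 and 4.80 CPM, those of jazQ 4.26, 4.54 and 5.01 and those of jazD 6.59, 7.31 and 7.73. Its 3 jazD libraries were the highest of the 9, a rise of log2 0.62 ± 0.12 against Col-0 (adjusted p = 0.00264) at a low level. PXY (AT5G61480) itself, which responds to a peptide that maintains the vascular cambium, had 27.96 ± 2.25 CPM in Col-0 and 27.8 ± 0.609 in jazD (log2 -0.01 ± 0.07, not called). BIR2 (AT3G28450), a pseudokinase that holds BAK1 in an inactive complex, rose by 0.28 ± 0.09 (adjusted p = 0.0309), from 25.4 ± 3.03 to 30.9 ± 1.81 CPM. That call ended on TPM (0.20) and when Col-0 replicate 1 (0.30), Col-0 replicate 3 (0.19), jazD replicate 1 (0.29) or jazD replicate 2 (0.24) was left out. Because the strandedness of the libraries is not given, reads of PXL2, AT5G25930, AT5G07150 and AT1G53440, which overlap exons of a gene on the opposite strand, cannot be told apart from reads of that gene.

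**Figure D3:**
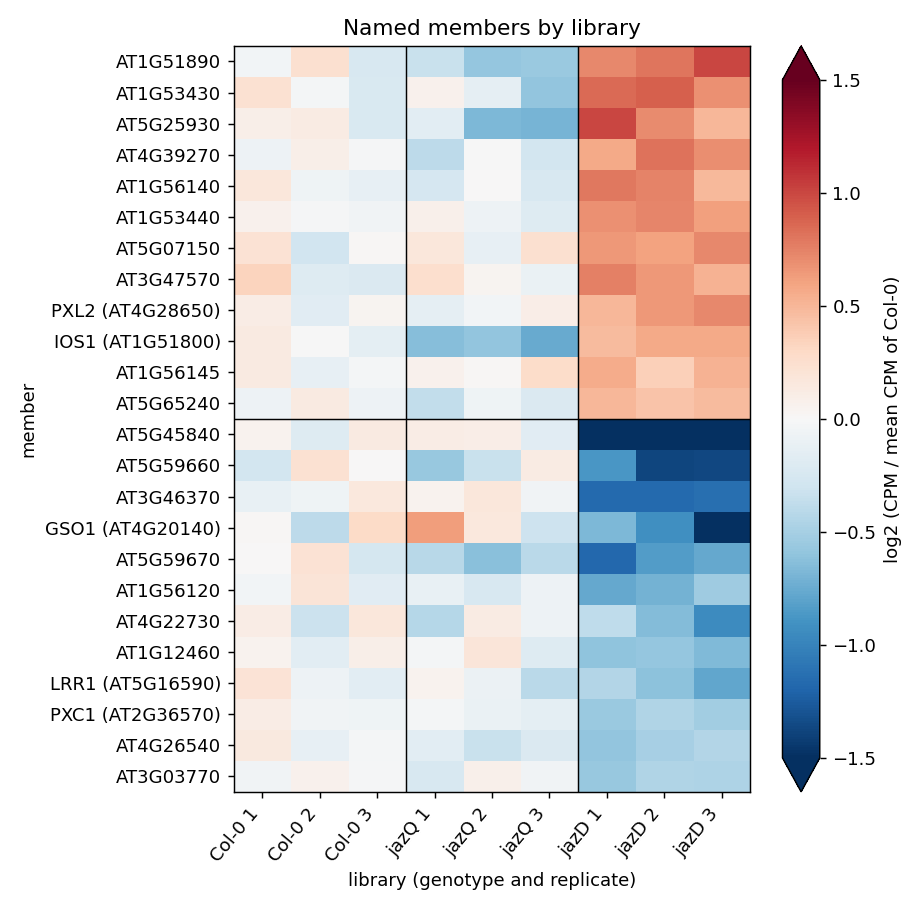
Log2 ratio of CPM to the mean of Col-0 in each of the 9 libraries for the 24 members named by rule, with the 12 largest rises above the line and the 12 largest falls below it. Red is higher and blue lower, colours stop at 1.5 in either direction, AT5G45840 lies beyond the scale in jazD, and IOS1 is blue in jazQ and red in jazD.

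AT5G45840 showed by far the largest change in the family. For AT5G45840 the 3 Col-0 libraries had 11.6, 9.78 and 12.2 CPM, those of jazQ 12.1, 12.04 and 9.92 and those of jazD 0.540, 0.643 and 0.790. The 3 jazD libraries were at or below 0.790 CPM while no other library was under 9.78, so the groups were far apart (log2 -4.08 ± 0.18, adjusted p = 3.38e-09). The gene lies between AT5G44490 and AT5G55790 on chromosome 5, a stretch known from earlier results of these data to hold genes nearly silent in jazD. In that stretch 37.5% of 863 tested genes passed in jazD against Col-0, beside 25.3% of the 18542 outside it. Because the stretch was known from these same data, this excess was partly fixed in advance and is no test of it. Of the members, 9 tested ones lie inside and 2 were called, AT5G45840 and MOL1 (AT5G51350), both lower. Outside it, 41 of 104 were called (39.4%), 19 higher and 22 lower, so the split of the family does not rest on the stretch. Whether the fall of AT5G45840 belongs to the jaz mutations or to this stretch of the jazD line cannot be told apart.

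The other falls were smaller and spread over several groups of members. AT3G46370 had nearly equal values within jazD. For AT3G46370 the 3 Col-0 libraries had 22.1, 22.9 and 26.8 CPM, those of jazQ 24.8, 26.9 and 22.98 and those of jazD 10.6, 10.7 and 10.9. The jazD libraries stood far below the others, with a fall of log2 -1.16 ± 0.10 (adjusted p = 1.22e-06). GSO1 (AT4G20140), which with GSO2 is needed for a proper epidermal surface in the embryo, was low throughout. For GSO1 the 3 Col-0 libraries had 2.36, 1.77 and 2.85 CPM, those of jazQ 3.59, 2.60 and 1.88 and those of jazD 1.46, 1.23 and 0.734. All 3 jazD libraries lay under those of Col-0 (log2 -1.03 ± 0.31, adjusted p = 0.0263). The call was lost when Col-0 replicate 1 (-1.03), Col-0 replicate 3 (-0.85), jazD replicate 2 (-1.08) or jazD replicate 3 (-0.79) was left out. GSO2 (AT5G44700) had 9 counts in all and was not tested. LRR1 (AT5G16590) fell from 41.7 ± 5.70 CPM in Col-0 to 27.4 ± 3.21 in jazD, with 38.02 ± 5.87 in jazQ (log2 -0.60 ± 0.14 against Col-0, adjusted p = 0.00825). AT5G59660 (-1.17 ± 0.24), AT5G59670 (-0.92 ± 0.13), AT1G56120 (-0.66 ± 0.10), AT1G12460 (-0.62 ± 0.11), AT4G26540 (-0.51 ± 0.08) and AT3G03770 (-0.49 ± 0.08) fell as well. They were named on condition that the libraries of jazD and Col-0 did not overlap. AT4G22730 met the same condition and fell (-0.64 ± 0.20). Its call was lost when Col-0 replicate 1 (-0.59), Col-0 replicate 3 (-0.54), jazD replicate 2 (-0.63) or jazD replicate 3 (-0.51) was left out. GSO1, AT5G59660, AT4G26540 and AT4G22730 overlap exons of a gene on the opposite strand.

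Of the tested members on the list for patterning, the cell wall and auxin whose listed name was found, 4 fell (PXC1, SUB, FEI1 and MOL1) and 4 did not pass. Tested members left out because that name was not found were AT3G56370, called lower, and AT2G01820, BARK1 and AT1G79620, not called in the main fit. PXC1 (AT2G36570), linked to xylem and its secondary walls, was the clearest. For PXC1 the 3 Col-0 libraries had 40.5, 36.1 and 35.6 CPM, those of jazQ 36.7, 35.00 and 33.9 and those of jazD 25.4, 27.2 and 25.97. The jazD libraries did not overlap the 6 others (log2 -0.51 ± 0.07, adjusted p = 0.000164). SUB (AT1G11130), which directs organ shape and cell patterning, fell from 16.2 ± 2.09 to 11.98 ± 0.399 CPM (log2 -0.43 ± 0.10, adjusted p = 0.00632). FEI1 (AT1G31420), which acts in cell wall synthesis and elongation, fell from 112 ± 6.54 to 81.9 ± 8.28 CPM (-0.45 ± 0.09, adjusted p = 0.00216), and its exons overlap a gene on the opposite strand. MOL1, a repressor of secondary growth, fell (log2 -0.39 ± 0.11, adjusted p = 0.0162), but not without Col-0 replicate 2 (-0.36), jazD replicate 1 (-0.33) or jazD replicate 2 (-0.37), nor in the Wald test of DESeq2 (-0.39, adjusted p = 0.0553). MOL1 lies in the chromosome 5 stretch, where the jaz mutations and the stretch itself cannot be told apart. FEI2 (-0.22 ± 0.08), PXC3 (-0.20 ± 0.08), RUL1 (-0.07 ± 0.13), an activator of secondary growth, and EMS1 (0.40 ± 0.15), which specifies anther cells, did not pass. The wider list for patterning, cell wall and auxin kinases, relatives included, had 20 tested genes with a name found. Of these 1 rose and 9 fell, with a median of -0.20, beside 13.3% higher and 12.5% lower among all genes. TMK1, a kinase of auxin signalling, was among them (-0.66 ± 0.12).

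Neighbouring members, at most 3 genes apart, formed 14 runs with 47 of the 164 members, and in 2 of the runs members that rose stood beside members that fell. Runs with no tested member, or with only 1, could not show both directions. Of all tested genes 13.3% were higher and 12.5% lower in jazD than in Col-0, and the counts by run were not tested. The largest run, from AT1G51790 to AT1G51910, has 10 members, of which 7 were tested, 3 rose (AT1G51790, IOS1 and AT1G51890) and 1 fell. The gene that fell, AT1G51850, had 1.38 ± 0.393 CPM in Col-0 and 0.597 ± 0.168 in jazD (log2 -1.19 ± 0.31), a call that ended when replicate 2 of Col-0 (-0.94) or of jazD (-0.99) was left out. AT1G51790 rose by 0.43 ± 0.12 with a call that ended when Col-0 replicate 3 (0.39) or jazD replicate 1 (0.31) was left out, and on TPM (0.28). AT1G51805, the most abundant of the run by TPM, had 228 ± 2.58 CPM in Col-0 and 213 ± 7.08 in jazD (log2 -0.10 ± 0.07, not called). AT1G51820 (0.55 ± 0.35) and AT1G51860 (-0.47 ± 0.19) did not pass, and AT1G51810, AT1G51830 and AT1G51910 were too low to test.

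**Figure D4:**
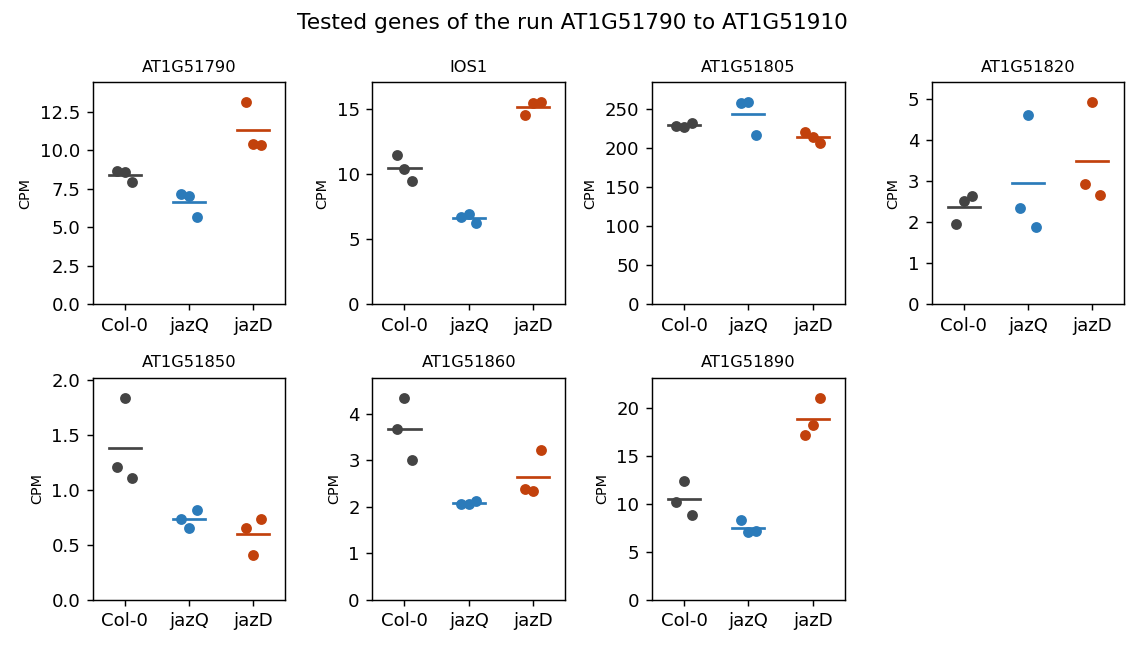
CPM in each library for the 7 tested members of the run from AT1G51790 to AT1G51910, with a bar at the mean of 3 libraries and every axis starting at 0. AT1G51790, IOS1 and AT1G51890 are highest in jazD and lowest in jazQ, AT1G51850 is below its Col-0 level in all 6 mutant libraries, and AT1G51805 lies between 206 and 258 CPM in all 9 libraries.

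In the run from AT1G56120 to AT1G56145 all 4 members were tested, and neighbours moved apart. For AT1G56120 the 3 Col-0 libraries had 27.9, 32.6 and 25.3 CPM, those of jazQ 26.4, 24.1 and 27.2 and those of jazD 16.9, 17.5 and 19.8. For AT1G56140 the 3 Col-0 libraries had 18.8, 15.9 and 15.3 CPM, those of jazQ 13.97, 16.7 and 14.1 and those of jazD 28.7, 28.01 and 23.4. AT1G56120 was lowest in the 3 jazD libraries and AT1G56140 highest there, with log2 fold changes of -0.66 ± 0.10 and 0.68 ± 0.11 (adjusted p = 0.000303 and 0.000438, edgeR). AT1G56145 rose (0.48 ± 0.11) and AT1G56130 did not pass (0.50 ± 0.18). The run from AT5G59650 to AT5G59680 had 2 of 4 tested members lower, AT5G59660 and AT5G59670, and none higher. In the run from AT3G46330 to AT3G46370 only AT3G46370 had enough counts, and in that from AT2G28960 to AT2G29000 none of the 4 members had. AT1G53430, AT1G53440 and the called members of the run at AT1G56120 are among 12 members whose reference annotation mentions malectin, a carbohydrate-binding fold. Of these 11 were tested, 4 rose and 2 fell (median 0.17), beside 15 and 22 of the 102 others (median -0.15). The grouping was made after the values were seen and not tested. It rests on that word alone, so the others cannot be taken to lack such a fold.

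The counts on the role lists that follow cover only genes whose listed name was found. They stand beside 13.3% of all tested genes higher and 12.5% lower in jazD than in Col-0. RLK7 and PEPR2, immune receptors outside the membership, had larger fold changes than any member that rose. Of 7 tested immune receptors, IOS1 included, 3 rose and 1 fell (median 0.43). The list held 11 genes, and members whose listed name was not found were left out of this count. They were AT5G25930, higher in jazD as described above, and AT1G74360, AT5G49760 and AT4G08850, which were not called. RLK7, a receptor for immune-amplifying peptides, went from 115 ± 18.4 to 268 ± 26.6 CPM (1.22 ± 0.16), and PEPR2, a receptor for Pep danger peptides, from 1.81 ± 0.108 to 5.44 ± 0.705 (1.58 ± 0.20). FLS2, the flagellin receptor, fell from 29.5 ± 2.31 to 18.4 ± 0.959 CPM (-0.69 ± 0.08) and lies in the chromosome 5 stretch. Of 12 co-receptors and their regulators 3 rose and 1 fell, with SOBIR1 (-0.47 ± 0.21) and SARK (AT4G30520), a regulator of leaf senescence (0.24 ± 0.10), among those that did not pass. Of the growth peptide receptors whose listed name was found, 4 of 18 were higher and 4 lower (median 0.03). Members of that list left out because the name was not found were AT4G26540, lower in jazD as described above, and AT5G48940, not among those called. Of 4 brassinosteroid receptors 1 fell. XIP1 (AT5G49660, also CEPR1), a receptor for CEP peptides, had 41.6 ± 3.96 CPM in Col-0 and 39.6 ± 1.70 in jazD and did not pass. LIK1 (AT3G14840), which the chitin receptor kinase CERK1 phosphorylates, did not pass against Col-0 (0.17 ± 0.07). On its list of kinase-inactive and abiotic signalling kinases 2 of 9 fell and 0 rose.

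The largest rise on any of the role lists was that of a partner, RBOHD, which lies in the chromosome 5 stretch, where the jaz mutations and the stretch itself cannot be told apart. Of 12 tested peptide ligand genes 1 fell and 0 rose (12.5% lower and 13.3% higher over all genes, as for the lists that follow): the phytosulfokine precursor gene PSK3 (AT3G44735) went from 24.6 ± 3.15 to 11.4 ± 0.157 CPM (-1.11 ± 0.12). Of 5 receptor-like proteins without a kinase 1 fell, RLP23 (-0.85 ± 0.15). Of 19 partners and outputs 5 rose and 1 fell. The oxidase RBOHD, which makes the reactive oxygen burst, went from 62.99 ± 10.6 to 240.2 ± 26.00 CPM (1.93 ± 0.16, adjusted p = 5.43e-05), the cytoplasmic kinase BIK1 rose by 0.42 ± 0.10, and the brassinosteroid transcription factor BES1 fell (-0.60 ± 0.07).

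**Figure D5:**
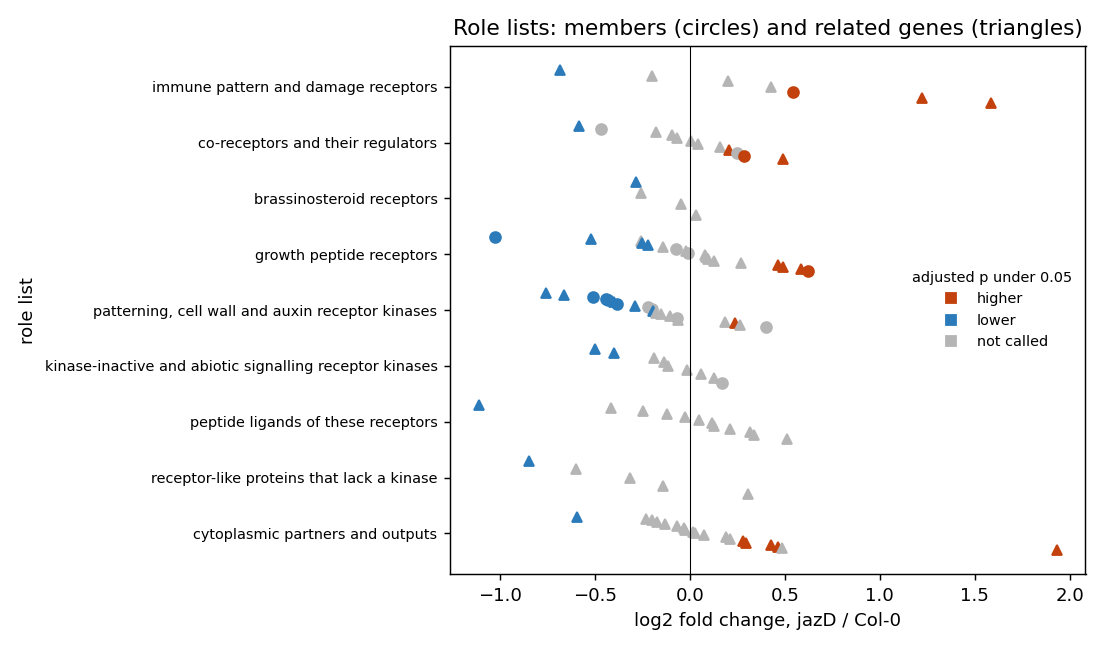
Log2 fold change of jazD over Col-0 for every tested gene of 9 role lists whose listed name was found, with members of the family as circles and related genes as triangles. The list for patterning, cell wall and auxin lies mostly below 0 with 9 genes lower, and the rises of RLK7, PEPR2 and RBOHD lie beyond those of all members.

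In jazQ the family was close to Col-0. IOS1 was the only member called, lower in jazQ, which is 0.885% of the 113 tested where 1.27% of all genes were called and 0.412% were lower. No member was called higher, where 0.861% of all genes were. The Wald test of DESeq2 also gave 1 lower and 0 higher, and at an unadjusted p under 0.05 edgeR gave 5 higher and 12 lower. Without Col-0 replicate 3 the count of lower members became 6, AT1G51860 (-0.94), AT1G51890 (-0.60) and AT5G59670 (-0.59) among them. With all libraries AT1G51860 was at -0.81 ± 0.19 (adjusted p = 0.0667), AT1G51890 at -0.49 ± 0.14 and AT5G25930 at -0.50 ± 0.18, none called in this fit. The median over the members was -0.03 and that of all genes -0.007.

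Set against jazQ, jazD had 22 members higher and 23 lower, 39.8% of those tested against 28.8% of all genes (15.0% higher and 13.8% lower), with a median of -0.13 beside -0.005. This comparison shares the jazD libraries with the one against Col-0, so the values are given side by side and not as a second test. Of the 19 members higher than in Col-0, all 19 were also higher than in jazQ, and of the 24 lower ones 20 were. The 4 called lower only against Col-0 were AT1G29720, AT1G51850, AT4G22730 and MOL1. Called only against jazQ were AT1G74360 (0.78 ± 0.15, and 0.41 ± 0.15 against Col-0), AT2G23300 (0.67 ± 0.21 and 0.04 ± 0.20) and LIK1 (0.22 ± 0.07 and 0.17 ± 0.07) as higher. MRH1 (AT4G18640), which acts in root hair growth, was lower only against jazQ (-0.46 ± 0.12, and -0.35 ± 0.12 against Col-0), as were AT2G27060 (-0.37 ± 0.12) and AT3G08680 (-0.20 ± 0.07). Apart from AT1G74360, each of these calls was lost in several of the other fits. AT2G23300 lost its call without jazQ replicate 3 (0.53) or any jazD library (0.64 to 0.69) and in the Wald test of DESeq2 (adjusted p = 0.135), and LIK1 without jazQ replicate 2 or 3 or any jazD library (0.18 to 0.23) and on TPM (0.16). MRH1 lost its call without jazQ replicate 1 (-0.35) or jazD replicate 2 (-0.41) or 3 (-0.43). AT2G27060 lost it when Col-0 replicate 1 or any library of either line was left out (-0.42 to -0.33), and AT3G08680 without jazQ replicate 1 or 2 or any jazD library (-0.23 to -0.18), in the Wald test (adjusted p = 0.0796) and with no filter on low counts (adjusted p = 0.0515, edgeR). The largest differences between the lines were AT5G45840 (-4.09 ± 0.18), AT1G51890 (1.33 ± 0.13), AT5G25930 (1.25 ± 0.18), AT3G46370 (-1.21 ± 0.10), GSO1 (-1.21 ± 0.30) and IOS1. AT5G59670 was nearly intermediate in jazQ, at 21.3 ± 1.77 CPM between 15.7 ± 2.32 in jazD and 29.7 ± 4.86 in wild type, and its call against jazQ (-0.44 ± 0.14) was lost without jazQ replicate 1 (-0.41) or 3 (-0.40) or jazD replicate 1 (-0.32) or 2 (-0.48). AT3G56370, whose paired G-box words are shown above, was lowest in jazD at 51.1 ± 2.76 CPM, with 60.2 ± 4.25 in Col-0 and 67.9 ± 5.24 in jazQ. It passed against both (adjusted p = 0.0355 and 0.00132, edgeR), but the call against Col-0 ended when replicate 1 (-0.19) or 3 (-0.24) of Col-0, or replicate 1 (-0.24) or 3 (-0.19) of jazD, was left out, and in the Wald test (adjusted p = 0.0517). AT1G06840, shown beside it, had 14.1 ± 0.336, 12.8 ± 1.18 and 19.4 ± 2.00 CPM and passed in both (0.46 ± 0.10 and 0.60 ± 0.10).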

How the data were processed

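RNA-seq of 9 pooled rosette samples (3 genotypes, 3 biological replicates each per the labels) was analysed, with groups and replicate numbers from the sample titles. Expected counts, which the authors deposited per gene, were made with RSEM 1.2.25, a tool that divides reads among the genes they match, on the genome TAIR10, per the submitters' processing notes. A second deposited table holds TPM of these libraries, per the file headers. Not given in the sources used here are the aligner, trimming, strandedness and annotation version. How multi-mapping reads were divided therefore affects members with repeated sequence, and unstranded counting would mix overlapping genes.

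Expected counts were rounded to whole numbers and tested with edgeR 4.0.16 (R 4.3.3). filterByExpr (minimum count 10) kept 19405 genes, libraries were scaled by TMM, and 1 robust quasi-likelihood fit over all 9 libraries gave 3 contrasts with Benjamini-Hochberg adjustment over the genes tested. Members were counted from that fit. CPM uses the scaled library size, and standard errors come from the log2 fold change and its F statistic. No 2 replicates were identical: the chi-square statistic per gene between replicates was 4.24 to 8.82, well above sampling noise. The fit was checked on simulated data.

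The members and lists were chosen with earlier results of these data known. Named members were, by rule, the 12 largest rises and falls against Col-0 and up to 5 for the other comparisons among called members whose higher group averaged at least 2 CPM and whose libraries did not overlap, the 5 highest by TPM, list members, and members of runs of 4 or more. From lists of related genes, called genes with the smallest p were eligible. Of 159 list identifiers, 22 whose name neither the tables nor the reference gave were left out. Members beyond the rule were named where a count of few or a lost call needed it, and AT1G06840, AT3G56370 and the malectin grouping were chosen after their values were seen. Promoters, overlaps and repeated words of 50 bases came from the RefSeq genome TAIR10.1, matched by gene identifier for all 164 members. Reads carry no molecular identifiers, and total counts limit the precision of low members. Alternatives were DESeq2 1.42.0 (size factors, Wald test), other filters, fits of only the groups compared, a replicate block, limma 3.58.1 on log2 TPM (pseudocounts 1 and 0.1), and leaving out each library.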

Additional observations from a re-analysis of the deposited data

How the results depend on the processing

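Counts of members called kept their direction and stayed within 1.5 times of the values reported under all settings, except members lower in jazQ against Col-0, which was 1 and became 3 with the replicate block and ranged from 1 to 6 over the fits without 1 library each (6 without Col-0 replicate 3). Over the fits without 1 library each, members higher in jazD than in Col-0 numbered 14 to 21 and lower ones 19 to 28. Against jazQ they numbered 18 to 23 and 17 to 25. On TPM, with all-gene medians of -0.07 to -0.08, the jazD counts against Col-0 were 14 and 33. The Wald test of DESeq2 gave 19 and 23. No named gene reversed its sign with a call. Of 43 members called in jazD against Col-0, 31 were called in every setting where they were tested, and 33 of 45 against jazQ. The labels state no pairing by replicate number. Deviations of same-numbered libraries from their group means were weakly and positively correlated, with r from 0.015 to 0.306, not all above 0.1. For libraries of different number r ran from -0.245 to 0.088. Not every sample correlated best with its own number (Col-0 replicate 2 did so with jazQ replicate 3, at 0.033, among the jazQ libraries). A link between same-numbered libraries is therefore not excluded, and the block is given as an alternative. With the number as a block AT5G25930 (-0.50, adjusted p = 0.00728, edgeR) and AT1G51860 (-0.81, adjusted p = 0.0399) joined IOS1 as lower in jazQ than in Col-0, BARK1 (-0.63, adjusted p = 0.0022) was called lower in jazD, and the counts of jazD were 21 higher and 31 lower against Col-0 and 23 and 29 against jazQ. Depth limits the 32 members with too few counts to test, for which no difference could be detected.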
